A study of Homo sapiens with 12 samples.

Results

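The EGR, IER and NR4A genes examined here are 10 immediate early genes, EGR1, EGR2, EGR3, IER2, IER3, IER5, IER5L, NR4A1, NR4A2 and NR4A3, taken by symbol from the 43735 genes of the deposited count table. Of the 10, 9 had at least 1 read, and 7 had enough reads to be tested. RNA was sequenced from 12 cultures of human multiple myeloma cells, with 3 cultures in each of 4 groups. These were the glucocorticoid-sensitive line MM1S and the glucocorticoid-resistant line MM1R, each untreated (UT) or treated with withaferin A (WA), a plant steroidal lactone, at 1 µM for 3 h. Both lines come from the same patient, so that each stands for cells of that patient only. The control cultures are described as untreated, and whether they received the solvent of WA is not stated in the sources used here.

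Immediate early genes are transcribed within minutes of a stimulus from factors that the cell already holds, without new protein synthesis, and their mRNAs are short-lived. The EGR proteins are zinc finger transcription factors that bind GC-rich sites, and the NR4A proteins are orphan nuclear receptors that bind DNA without a known hormone. The IER proteins bear a common name for their rapid induction, and IER2, IER5 and IER5L share an amino-terminal IER domain, while IER3 is unrelated in sequence. Serum response factor at CArG boxes, CREB and, for IER5, heat shock factor are known activators of such genes. NR4A1 is known for its part in the apoptosis of lymphoid cells such as thymocytes.

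Replicates were cultures of different passage, 16, 22 and 23 for MM1S and 4, 6 and 7 for MM1R, and each passage gave an untreated and a WA culture. Because the lines share no passage number, line and passage cannot be told apart. Between 17625110 and 19368343 reads per library were counted on genes. Of 9 plasma cell markers, 8, among them SDC1, IRF4 and XBP1, had at least 708 reads in every library, whereas CD27 had 1 to 8. Of 13 markers of B cells, T cells, monocytes and fibroblasts, COL1A2 and COL3A1 were at 0 in every library, and most others had at most 11 reads. The exceptions were CD3E (63 to 211 reads) and COL1A1 (9 to 294 reads). The sum of the 13 ran from 5.44 to 8.65 CPM in untreated MM1S and from 8.81 to 13.9 CPM in MM1S with WA. In MM1R it ran from 9.53 to 14.2 CPM untreated and from 15.0 to 27.1 CPM with WA. Within this sum COL1A1, which encodes a collagen chain, rose with WA by a log2 fold change of 2.78 in MM1S (adjusted p = 0.0045) and of 2.46 in MM1R (adjusted p = 0.0039, edgeR). The part of other cell types in the results below was not tested. In RNA of whole cultures, fewer cells expressing a gene and less of its RNA per cell cannot be told apart.

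Promoter sequence is shown for 4 members, those among the searched members with a match to a heat shock element or a CArG box. The 4 were picked by these matches, which the IER2 window and the other EGR2 windows lacked. RefSeq promoter sequences were searched for EGR1, EGR2, IER2, IER5, IER5L, NR4A1 and NR4A3, and each was matched to a single place in GRCh37. EGR3 was left out of the search, so that the EGR results cover EGR1 and EGR2 only. The 250 bases before the transcription start are printed from 5′ to 3′ on the strand of the gene, with motif matches in capitals. For IER5 (chr1:181057586-181057835, plus strand) and IER5L (chr9:131940541-131940790, minus strand) the capitals mark a match to the heat shock element pattern GAANNTTC.
IER5: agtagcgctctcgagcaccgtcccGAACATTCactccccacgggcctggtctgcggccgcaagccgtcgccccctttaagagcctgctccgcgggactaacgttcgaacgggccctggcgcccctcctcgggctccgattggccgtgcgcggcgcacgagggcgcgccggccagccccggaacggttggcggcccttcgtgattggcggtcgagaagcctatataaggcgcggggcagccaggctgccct
IER5L: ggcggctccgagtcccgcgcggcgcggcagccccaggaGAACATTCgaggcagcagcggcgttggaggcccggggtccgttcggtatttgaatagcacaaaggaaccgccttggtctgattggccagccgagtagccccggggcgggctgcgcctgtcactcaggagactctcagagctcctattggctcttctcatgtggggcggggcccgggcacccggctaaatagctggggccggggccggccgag
The matched letters were GAACATTC in both, and they lay at positions -226 to -219 in IER5 and -212 to -205 in IER5L, counted backwards from the transcription start. GAANNTTC, which reads the same on both strands, occurred in 5.78% of all 35116 RefSeq promoter windows of the same length.

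In EGR1 (chr5:137800918-137801167, plus strand) the capitals mark, in order, a match to the EGR site GCGNGGGCG and a pair of CArG boxes. In EGR2 (chr10:64576127-64576376, minus strand, before the most downstream of its 3 RefSeq starts) they mark a CArG box followed by a match to the antioxidant response element TGACNNNGC on the other strand.
EGR1: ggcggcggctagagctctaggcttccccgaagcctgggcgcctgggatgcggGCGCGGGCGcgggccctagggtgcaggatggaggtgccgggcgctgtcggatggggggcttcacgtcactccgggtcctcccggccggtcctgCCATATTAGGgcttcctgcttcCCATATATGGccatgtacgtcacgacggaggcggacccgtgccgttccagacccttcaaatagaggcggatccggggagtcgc
EGR2: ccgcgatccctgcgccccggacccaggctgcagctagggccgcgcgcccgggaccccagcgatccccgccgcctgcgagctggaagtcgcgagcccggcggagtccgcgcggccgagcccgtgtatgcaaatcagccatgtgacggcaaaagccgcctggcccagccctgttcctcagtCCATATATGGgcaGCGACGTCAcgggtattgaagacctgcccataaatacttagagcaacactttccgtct
CArG boxes occurred in 1.16% of all promoter windows, EGR sites in 8.41% and antioxidant response elements in 10.9%. IER5 and IER5L held no CArG box, and the EGR1 and EGR2 windows held no heat shock element of either order (11.6% of all windows held GAANNTTC or TTCNNGAA). None of these motifs, nor the cyclic AMP response element TGACGTCA (1.65%), the NR4A site AAAGGTCA (1.05%) or TATAAA (10.7%), was found in the IER2 window, in either of the NR4A1 windows or in the other EGR2 windows. The NR4A3 window held an antioxidant response element. All motifs were searched on both strands, and a match is a description of the letters only.

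**Figure D1:**
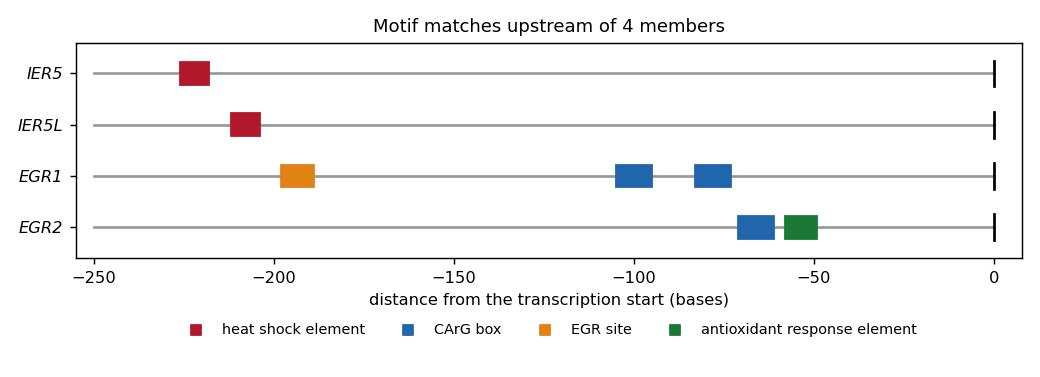
Motif matches in the 250 bases before the transcription start of IER5, IER5L, EGR1 and EGR2, drawn to scale with the distance from the start in bases on the x axis and a black bar at the start. The matches of IER5 and IER5L to the heat shock element pattern begin at -226 and -212, and the CArG boxes of EGR1 and EGR2 lie nearer to the start, from -105 onwards.

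After WA, 4 of the 7 tested members were higher in MM1R, namely NR4A1, IER5, IER5L and NR4A2, and 3 were higher in MM1S, namely NR4A1, IER5 and IER5L (adjusted p under 0.05, quasi-likelihood test of edgeR, p-values adjusted by Benjamini-Hochberg over 14085 genes). None was lower in either line. Over all genes tested, 14.0% passed the same limit in MM1R and 7.55% passed it as higher, while in MM1S 10.5% passed and 6.25% passed as higher. The median log2 fold change of the 7 was 1.37 in MM1R and 1.31 in MM1S, beside medians of 0.01 over all genes in each line. In a fit with the passage as replicate block, 7 members passed in MM1R and 4 in MM1S, with EGR1, EGR2 and IER2 added in MM1R and EGR2 added in MM1S. Over all genes the replicate block raised the number of calls from 1973 to 4094 in MM1R and from 1476 to 3399 in MM1S.

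Without regard to the test, all 3 WA cultures lay above all 3 untreated cultures for 6 of the 7 tested members in MM1R and for 4 of the 7 in MM1S. In these comparisons 17.3% and 16.4% of all genes tested showed the same separation. EGR1 was the exception in MM1R, and EGR1, IER2 and IER5L were the exceptions in MM1S.

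**Figure D2:**
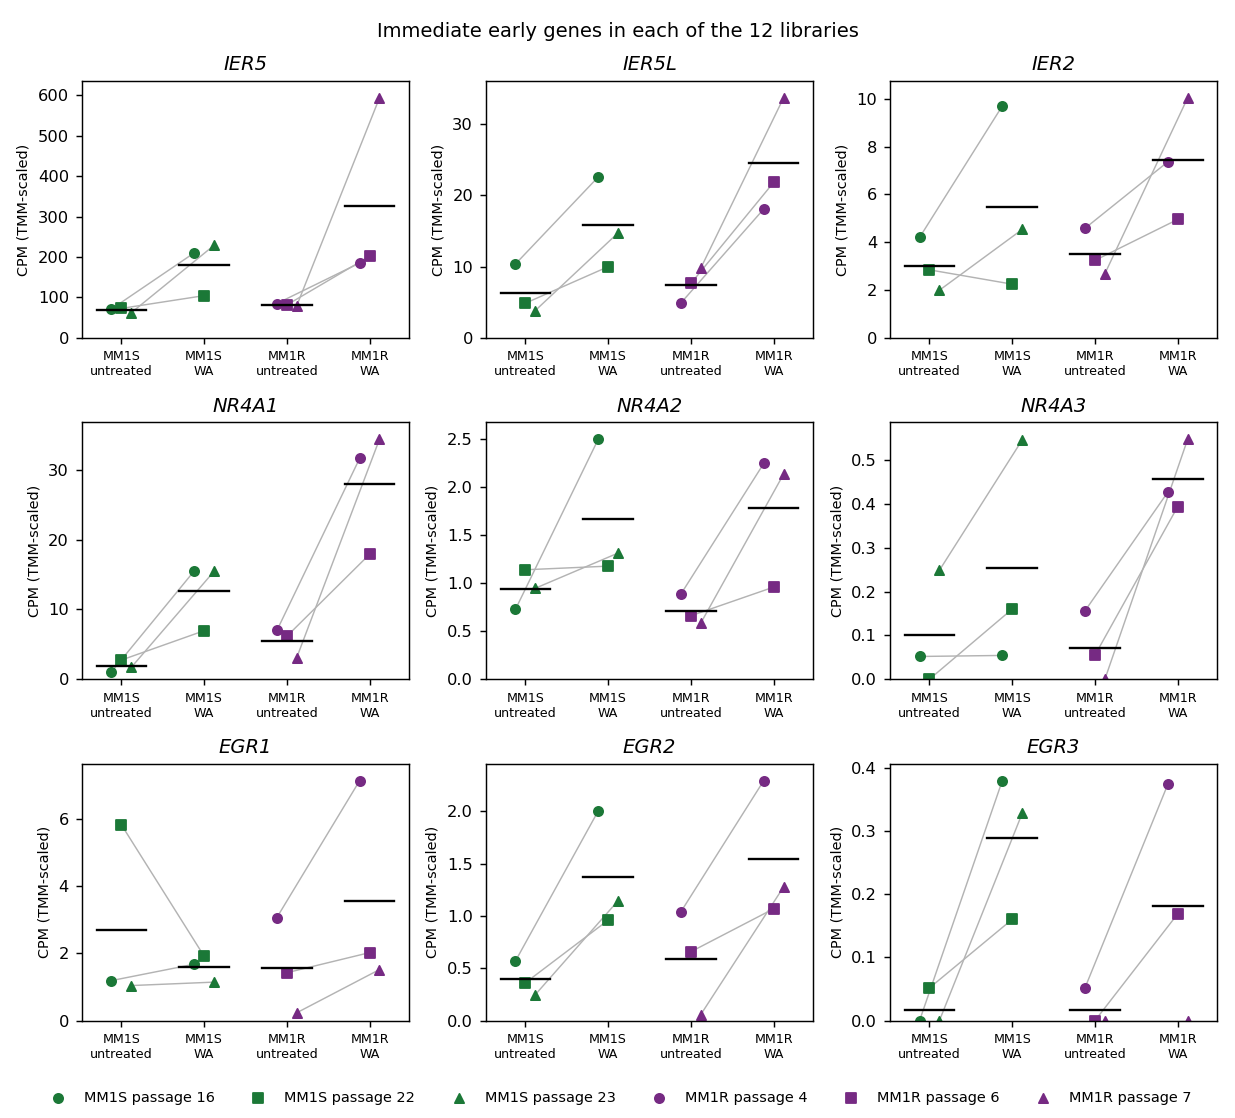
Normalised counts (CPM, TMM-scaled, linear axes from 0) of the 9 members with a read, in untreated and WA cultures of MM1S (green) and MM1R (purple), with 1 point per library, black bars at group means and grey lines joining cultures of the same passage. IER5 of MM1R passage 7 with WA stands at 594 CPM beside 185 and 202 CPM in the other WA cultures of that line, and untreated EGR1 of MM1S passage 22 stands at 5.84 CPM above the other untreated cultures of both lines.

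IER5, whose product binds protein phosphatase PP2A and heat shock factor HSF1, was the member with the highest level. It is a gene without introns on chromosome 1 (GRCh37, plus strand, 181057836 to 181062036), and its promoter window holds the GAANNTTC match shown above. In untreated MM1S it had 1368, 1406 and 1245 reads in passages 16, 22 and 23, and with WA 3877, 1953 and 4190. In untreated MM1R it had 1628, 1480 and 1361 reads in passages 4, 6 and 7, and with WA 3469, 3586 and 9762. Every WA culture was above every untreated culture of either line, and passage 7 of MM1R was far above all others. The untreated cultures of MM1R, at 79.4 to 84.8 CPM, lay above those of MM1S, at 61.9 to 72.6 CPM.

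As group means IER5 stood at 68.5 ± 5.76 CPM in untreated MM1S and 181 ± 67.1 CPM with WA, and at 81.8 ± 2.74 CPM in untreated MM1R and 327 ± 231 CPM with WA (SD, n = 3). The spread was thus narrow without treatment (coefficient of variation 8.41% and 3.36%) and wide with WA (37.1% and 70.8%). IER5 rose by a log2 fold change of 2.0 in MM1R (SE of 0.38 and adjusted p = 0.0038) and of 1.40 in MM1S (SE of 0.37 and adjusted p = 0.030, edgeR). Without the WA culture of MM1R passage 7 the log2 fold change in MM1R was 1.27 (adjusted p = 0.0062, edgeR). In MM1S the adjusted p of the edgeR test went to 0.059, 0.086 and 0.103 without untreated passages 16, 22 and 23 and to 0.076 and 0.101 without WA passages 16 and 23.

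IER5L, the paralogue of IER5, also has no introns and lies on chromosome 9 (GRCh37, minus strand, 131937831 to 131940540). It had 200, 94 and 77 reads in untreated MM1S (passages 16, 22 and 23) and 417, 187 and 270 with WA. In MM1R (passages 4, 6 and 7) it had 94, 139 and 168 reads untreated and 339, 388 and 554 with WA. The MM1R groups were apart by a wide margin, while in MM1S untreated passage 16 reached above WA passage 22.

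The group means of IER5L were 6.35 ± 3.51 and 15.8 ± 6.37 CPM in MM1S and 7.44 ± 2.46 and 24.5 ± 8.16 CPM in MM1R, untreated and with WA (SD, n = 3). It rose by a log2 fold change of 1.72 in MM1R (SE of 0.39 and adjusted p = 0.0097) and of 1.31 in MM1S (SE of 0.39 and adjusted p = 0.045, edgeR). In MM1R it stayed past the limit whichever of the 12 libraries was omitted. In MM1S the call was lost in 7 of these fits. By edgeR, the adjusted p became 0.163 and 0.164 without untreated MM1S passages 22 and 23, 0.156 and 0.084 without MM1S WA passages 16 and 23, 0.064 without untreated MM1R passage 6, and 0.051 and 0.060 without MM1R WA passages 4 and 6. Without untreated MM1S passage 16 its log2 fold change in MM1S was 1.86. It was also lost when the 6 MM1S libraries were fitted by themselves (0.088).

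IER2, a nuclear protein of the same family on chromosome 19 (GRCh37, plus strand, 13261225 to 13265725, 2 exons), had 81, 55 and 40 reads in untreated MM1S and 179, 42 and 83 with WA. In MM1R it had 88, 59 and 46 reads untreated and 138, 88 and 165 with WA. WA passage 22 of MM1S lay below untreated passages 16 and 22, and the MM1S groups overlapped. The MM1R groups did not overlap in CPM, although by reads untreated passage 4 equalled WA passage 6. Its log2 fold change was 1.08 in MM1R (SE of 0.44 and adjusted p = 0.12) and 0.87 in MM1S (SE of 0.45 and adjusted p = 0.25, edgeR). In MM1S that value was 0.17 without WA passage 16 and 1.24 without WA passage 22. In MM1R the adjusted p became 0.044 without MM1S WA passage 16 (edgeR). With the replicate block IER2 passed in MM1R, with a log2 fold change of 1.05 (adjusted p = 0.017, edgeR). Among all settings other than leaving out a library, IER2 gained the call in MM1R in 4 of 7.

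IER3, an early response gene that modulates apoptosis, was listed at 0 in every library. It lies in the major histocompatibility complex on chromosome 6 (GRCh37, minus strand, 30710976 to 30712325), and the count table holds 6 entries of its name, all at 0. Of 290 genes with at least 5 additional entries, 162 (55.9%) were at 0 in every entry and library, compared with 31.5% of the 36657 genes without such entries. DDX39B, an RNA helicase needed by every cell, was likewise at 0 in all entries. IER3 is therefore given as listed at 0, and no level was drawn from it.

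NR4A1, the nuclear receptor also called NUR77, showed the highest fitted increase among the members in both lines. It lies on chromosome 12 (GRCh37, plus strand, 52416616 to 52453291, 7 exons). It had 20, 53 and 34 reads in untreated MM1S and 286, 130 and 283 with WA. In MM1R it had 134, 112 and 53 reads untreated and 593, 318 and 565 with WA. The 4 groups did not overlap in CPM except that untreated MM1R passage 4 (6.98 CPM) was marginally above MM1S WA passage 22 (6.94 CPM).

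The group means of NR4A1 were 1.82 ± 0.858 and 12.6 ± 4.93 CPM in MM1S and 5.40 ± 2.05 and 28.0 ± 8.83 CPM in MM1R, untreated and with WA (SD, n = 3). It rose by a log2 fold change of 2.79 in MM1S (SE of 0.42 and adjusted p = 0.00092) and of 2.37 in MM1R (SE of 0.38 and adjusted p = 0.0013, edgeR). Leaving out any of the 12 libraries kept NR4A1 past the limit in both lines, with log2 fold changes from 2.51 to 3.20 in MM1S and from 2.09 to 2.62 in MM1R.

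NR4A2, also called NURR1 and known for its part in dopamine neurons, lies on chromosome 2 (GRCh37, minus strand, 157180949 to 157198860, 8 exons). It had 14, 22 and 19 reads in untreated MM1S and 46, 22 and 24 with WA. In MM1R it had 17, 12 and 10 reads untreated and 42, 17 and 35 with WA. At these counts the MM1S groups were apart only marginally, with 1.14 CPM in the highest untreated and 1.17 CPM in the lowest WA culture, both of passage 22. The group means were 0.935 ± 0.206 and 1.66 ± 0.725 CPM in MM1S and 0.709 ± 0.157 and 1.78 ± 0.711 CPM in MM1R (SD, n = 3).

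NR4A2 was barely past the limit in MM1R, with a log2 fold change of 1.31 (SE of 0.41 and adjusted p = 0.049), and did not pass it in MM1S at 0.82 (SE of 0.40 and adjusted p = 0.22, edgeR). The value in MM1S was 0.41 without WA passage 16. In MM1R the call was lost in 8 of the 12 fits that left out a library. By edgeR, the adjusted p became 0.062, 0.064 and 0.057 without untreated passages 22 and 23 and WA passage 23 of MM1S. It was 0.055, 0.150 and 0.146 without untreated passages 4, 6 and 7 of MM1R and 0.166 and 0.137 without its WA passages 4 and 7. With the 6 MM1R libraries fitted by themselves it was 0.052, and in DESeq2 with the replicate block 0.064.

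NR4A3, the remaining receptor of the family, lies on chromosome 9 (GRCh37, plus strand, 102584137 to 102629173, 8 exons) and had too few reads for the test. It had 1, 0 and 5 reads in untreated MM1S and 1, 3 and 10 with WA. In MM1R it had 3, 1 and 0 reads untreated and 8, 7 and 9 with WA. The summed reads of MM1R thus went from 4 to 24, which after scaling to depth is a ratio of 6.18 (exact 95% interval 2.12 to 24.5). In MM1S they went from 6 to 14, a ratio of 2.47 (0.892 to 7.84). These intervals cover counting error only and not the spread between cultures.

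EGR1, the founding member of its family, lies on chromosome 5 (GRCh37, plus strand, 137801168 to 137804992, 2 exons). It had 23, 113 and 21 reads in untreated MM1S and 31, 36 and 21 with WA. In MM1R it had 59, 26 and 4 reads untreated and 134, 36 and 25 with WA. A single library, untreated passage 22, set MM1S apart, and WA and untreated cultures overlapped in both lines. Within pairs of the same passage EGR1 was higher with WA in 3 of 3 pairs of MM1R and in 2 of 3 pairs of MM1S.

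The group means of EGR1 were 2.69 ± 2.73 and 1.58 ± 0.397 CPM in MM1S and 1.58 ± 1.43 and 3.56 ± 3.11 CPM in MM1R (SD, n = 3). Its log2 fold change was -0.76 in MM1S (SE of 0.79 and adjusted p = 0.62) and 1.17 in MM1R (SE of 0.78 and adjusted p = 0.36, edgeR). Without untreated MM1S passage 22 the value in MM1S was 0.50 (adjusted p = 0.81, edgeR), so that its sign rests on that library. In MM1R it was 0.16 without WA passage 4 (adjusted p = 0.95, edgeR) and 2.08 without untreated passage 4. With the replicate block EGR1 passed in MM1R, at a log2 fold change of 1.19 (adjusted p = 0.038, edgeR). Among all settings other than leaving out a library, EGR1 gained the call in MM1R in 3 of 6.

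EGR2, a factor known from myelination and lymphocyte tolerance, lies on chromosome 10 (GRCh37, minus strand, 64571756 to 64578927, 2 exons). It had 11, 7 and 5 reads in untreated MM1S and 37, 18 and 21 with WA. In MM1R it had 20, 12 and 1 reads untreated and 43, 19 and 21 with WA. The groups did not overlap in CPM in either line, although by reads untreated passage 4 of MM1R was above WA passage 6. As group means it stood at 0.393 ± 0.163 and 1.37 ± 0.557 CPM in MM1S and at 0.586 ± 0.495 and 1.55 ± 0.655 CPM in MM1R (SD, n = 3).

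EGR2 did not pass the limit in either line, with log2 fold changes of 1.79 in MM1S (SE of 0.62 and adjusted p = 0.083) and 1.37 in MM1R (SE of 0.59 and adjusted p = 0.14, edgeR). With the replicate block it passed in both, at 1.78 in MM1S (adjusted p = 0.013) and 1.43 in MM1R (adjusted p = 0.024, edgeR). DESeq2 without the block also called it in MM1S (adjusted p = 0.045), as did edgeR without untreated MM1R passage 7 (adjusted p = 0.028). Among all settings other than leaving out a library, EGR2 gained the call in 5 of 6 in MM1S and in 3 of 6 in MM1R. In MM1R its log2 fold change was 0.86 without untreated passage 7 and 2.07 without untreated passage 4. EGR3, which acts beside EGR2 in lymphocytes, lies on chromosome 8 (GRCh37, minus strand, 22545172 to 22550993, 2 exons) and was too low for the test. It had 0, 1 and 0 reads in untreated MM1S and 7, 3 and 6 with WA, and in MM1R 1, 0 and 0 untreated and 7, 3 and 0 with WA. The ratio of the summed reads was 16.9 in MM1S (16 against 1, exact 95% interval 2.63 to 710) and 10.3 in MM1R (10 against 1, 1.47 to 447). These intervals too leave out the spread between cultures, and WA passage 7 of MM1R had no read.

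**Figure D3:**
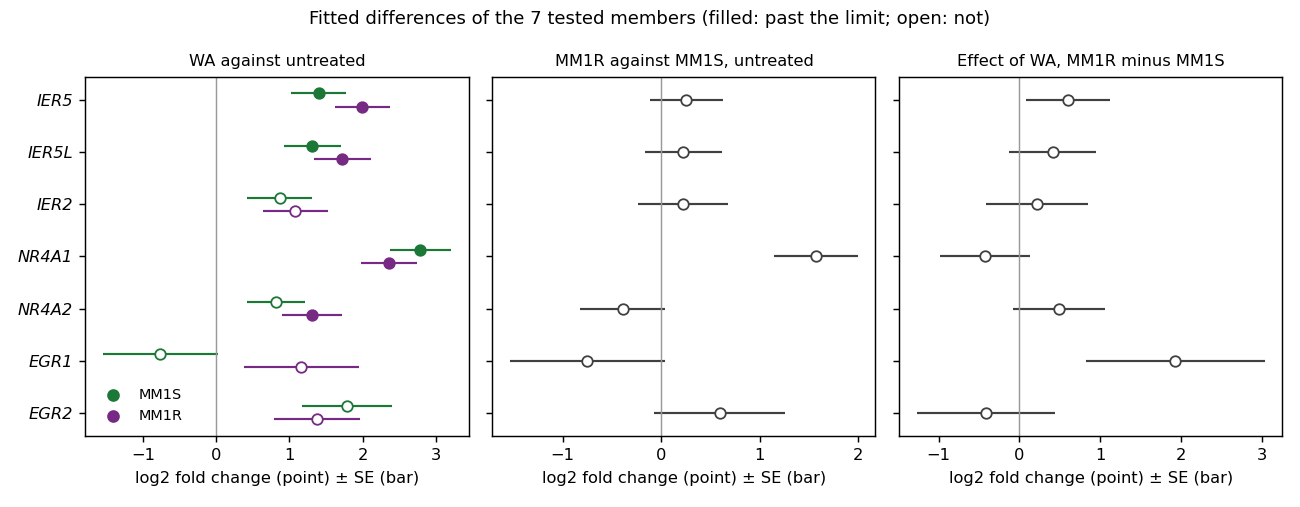
Log2 fold changes (points) and standard errors (bars) of the 7 tested members from edgeR, for WA in MM1S (green) and MM1R (purple), for untreated MM1R against MM1S and for the difference between the lines in the WA effect, with filled points where the limit of that comparison was passed. NR4A1 has the highest increase with WA in both lines, EGR1 in MM1S is the single value below 0 for WA, and no point is filled in the middle and right panels.

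Levels of different genes can be compared only per length of transcript. In CPM per kb of the canonical transcript, IER5 was highest in untreated cells, at 16.3 in MM1S and 19.5 in MM1R, followed by IER5L at 2.34 and 2.74. IER2 (1.43 and 1.66), EGR1 (0.858 and 0.503) and NR4A1 (0.733 and 2.17) came next. In MM1S the neighbours from IER5L down to NR4A1 differed by less than the larger of their SDs, as did IER5L, NR4A1 and IER2 in MM1R, where EGR1 lay below them by more than its SD (0.454). NR4A2 and EGR2 lay between 0.132 and 0.269. With WA, NR4A1 stood at 5.08 in MM1S and 11.3 in MM1R, close to IER5L at 5.82 and 9.06, and these also differed by less than their SDs (1.98 to 3.55). IER5 remained the highest at 43.1 and 77.8.

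To see whether GC-resistant and GC-sensitive cells started from different levels, untreated MM1R was compared with untreated MM1S. No tested member passed an adjusted p of 0.01 with a log2 fold change over 1, while 2.97% of all genes did. For IER5 and NR4A1 all untreated MM1R cultures lay above all untreated MM1S cultures, a separation seen in this direction for 16.6% of all genes tested. NR4A1 came nearest, at a log2 fold change of 1.57 (SE of 0.43 and adjusted p = 0.030, edgeR), and DESeq2 put it past the limit (adjusted p = 0.0015). IER5 was at 0.26 (SE of 0.37 and adjusted p = 0.71, edgeR), and the adjusted p of the other members was at least 0.59.

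To see whether the lines differed in their response, the difference in the WA effect (MM1R minus MM1S) was tested as an interaction. None of the 7 members passed, and neither did any gene overall (0% of 14085, edgeR). Only 97 genes had an unadjusted p under 0.05, fewer than this cut-off would give by chance if no gene differed. The test was thus conservative, and its lack of calls does not show that the lines respond alike. Why it was conservative was not tested. DESeq2 called 1 gene, or 6 when the replicate block was included. Once genes of few reads were kept in, edgeR called 11. The fitted difference was highest for EGR1, at a log2 value of 1.93 (SE of 1.11, 95% interval -0.24 to 4.10, unadjusted p = 0.10, edgeR). That value was 0.66 without untreated MM1S passage 22 and 2.85 without untreated MM1R passage 4. It was 0.60 for IER5 (interval -0.42 to 1.62), 0.41 for IER5L (-0.65 to 1.47), 0.49 for NR4A2 (-0.63 to 1.61) and 0.22 for IER2 (-1.02 to 1.45). It was -0.42 for NR4A1 (-1.51 to 0.67) and -0.41 for EGR2 (-2.09 to 1.26). These intervals reach past a log2 difference of 1 in both directions for EGR2 and IER2. The call of NR4A2 in MM1R alone does not show a difference between the lines, and its interval does not exclude one. After WA, NR4A1 was the only tested member whose MM1R cultures (17.9 to 34.4 CPM) all lay above those of MM1S (6.94 to 15.5 CPM), a separation that 14.8% of all genes tested showed.

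The size of the WA effect varied with the culture pair in a way that the members shared. In MM1S all 7 tested members had their smallest log2 change in passage 22, and in MM1R 6 of 7 had their smallest change in passage 6 and 6 of 7 their largest in passage 7. The median change of the 7 was 1.23, 0.52 and 1.14 in passages 16, 22 and 23 of MM1S and 1.10, 0.54 and 1.73 in passages 4, 6 and 7 of MM1R (log2 of CPM + 0.5). NR4A1, for example, was 15.0-fold, 2.53-fold and 9.14-fold higher in the MM1S pairs and 4.53-fold, 2.91-fold and 11.1-fold higher in the MM1R pairs. IER5 was 2.96-fold, 1.44-fold and 3.69-fold higher in MM1S and 2.18-fold, 2.48-fold and 7.48-fold higher in MM1R.

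Other genes that rose with WA shared part of this order. Of the 880 genes called higher in MM1S, 61.8% had their smallest change in passage 22, and of the 1063 called higher in MM1R, 65.0% had their largest change in passage 7. Passage 6 was less marked there, with the smallest change in 34.4% of the 1063 genes beside 49.5% in passage 4. Over all 14085 genes tested, the corresponding shares were 38.0% for passage 22, 38.2% for passage 7 and 25.5% for passage 6. These shares are descriptions, since the members are few and share their libraries.

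**Figure D4:**
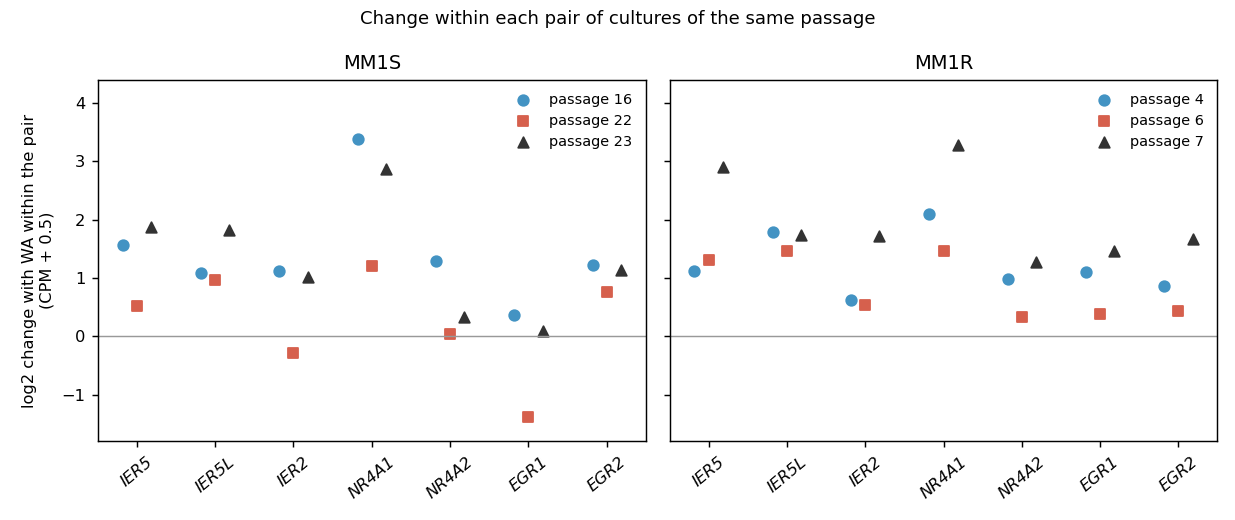
Log2 change with WA within each pair of cultures of the same passage (CPM + 0.5) for the 7 tested members in MM1S (left) and MM1R (right). Passage 22 is the lowest point for every member in MM1S, and passage 7 is the highest in MM1R for every member but IER5L.

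Across the 12 libraries, log2 CPM of IER5 and IER5L correlated with r = 0.89 and that of IER5 and NR4A1 with r = 0.87, the highest values among pairs of members. EGR1 was the least like the others, with r from -0.02 to 0.60, the latter with EGR2. Among all tested genes, the patterns most like that of IER5 were those of PLAUR (r = 0.99), NAIF1 and WASIR2 (both 0.97), and those most like NR4A1 were TCTN1 (0.97), LOC101927402 and TSC22D3 (both 0.96). For EGR1 they were CCL4L1 (0.90), which has near-identical copies that may share its reads, LINC00537 (0.89) and FOS (0.86). These are descriptions over 12 libraries that share cell line and treatment.

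Partners and upstream regulators of the families were covered by 3 further lists. Of 8 relatives, partners and corepressors (other EGR and NR4A partners such as NAB1, NAB2 and RXRA), 4 were tested and none passed with WA in either line, with median log2 fold changes of -0.19 in MM1R and -0.12 in MM1S. NAB2, a corepressor that EGR proteins induce, was at 0.58 in MM1R (adjusted p = 0.085) and 0.68 in MM1S (adjusted p = 0.056, edgeR). RXRA, the heterodimer partner of NR4A1 and NR4A2, was the single gene of this list that differed between the untreated lines, higher in MM1R by 1.21 on the log2 scale (adjusted p = 0.0012, edgeR).

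Of 12 serum response factor, ternary complex and CREB family regulators, all tested, 2 rose and 3 fell in MM1R and 2 rose and 1 fell in MM1S (medians -0.18 and -0.14). As background to this list and those below, 1063 of all 14085 genes tested were called higher and 910 lower in MM1R. In MM1S 880 were called higher and 596 lower. The CREB coactivator CRTC1 fell by 0.74 on the log2 scale in MM1R (adjusted p = 0.019) and by 0.81 in MM1S (adjusted p = 0.017, edgeR). Its relative CRTC3 rose by 0.43 in MM1R (adjusted p = 0.021) and 0.48 in MM1S (adjusted p = 0.014, edgeR), and CREB1 rose by 0.37 and 0.42 (adjusted p = 0.036 and 0.025, edgeR). ATF1 fell by 0.46 in MM1R (adjusted p = 0.028, edgeR), as did CRTC2, named after its values were seen, by 0.37 (adjusted p = 0.033, edgeR).

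Of 12 ERK, RSK and MSK pathway kinases, 11 were tested, and 1 rose and 2 fell in MM1R. BRAF rose by 0.48 there (adjusted p = 0.036), and ARAF fell by 0.33 (adjusted p = 0.044, edgeR), with none past the limit in MM1S (DESeq2 called 1 higher and 3 lower there, and the replicate block in edgeR 1 higher and 5 lower). The list medians were -0.21 and -0.12. With a library left out, the regulators called ranged from 0 to 2 higher and 0 to 4 lower in MM1R and from 0 to 2 higher and 0 to 3 lower in MM1S, and the kinases from 0 to 1 higher and 0 to 3 lower in MM1R. Both lists were at 0 in either direction in MM1R without its WA passage 4, and the kinases also without its WA passage 7, untreated passage 6 or untreated passage 7.

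Of 40 other immediate early genes, 38 were tested, 12 rose and 2 fell in MM1R, and 5 rose and 1 fell in MM1S, with median log2 fold changes of 0.39 and 0.08. PPP1R15A (GADD34), which directs the dephosphorylation of eIF2α, rose by 3.55 in MM1R (adjusted p = 0.0040) and 2.63 in MM1S (adjusted p = 0.022, edgeR). The AP-1 subunits FOSB and JUN rose in MM1R by 3.33 (adjusted p = 0.0039) and 2.43 (adjusted p = 0.0081), as did the stress factor ATF3 by 2.10 (adjusted p = 0.022, edgeR). In MM1S these 3 had log2 fold changes of 1.77, 1.42 and 1.74 that missed the limit (adjusted p = 0.079, 0.092 and 0.057, edgeR). The further genes that rose in MM1S were RGS2, MAFF, ZFP36 and KLF6, and those that fell were DUSP4 in MM1R and TIPARP in both lines, all named after their values were seen. With a library left out, 10 to 14 of the list rose in MM1R and 0 to 3 fell, with 10 and 0 without WA passage 7 of MM1R. In MM1S the number that rose was 3 and 2 without untreated passages 16 and 23, and 9 and 2 without WA passages 22 and 23.

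**Figure D5:**
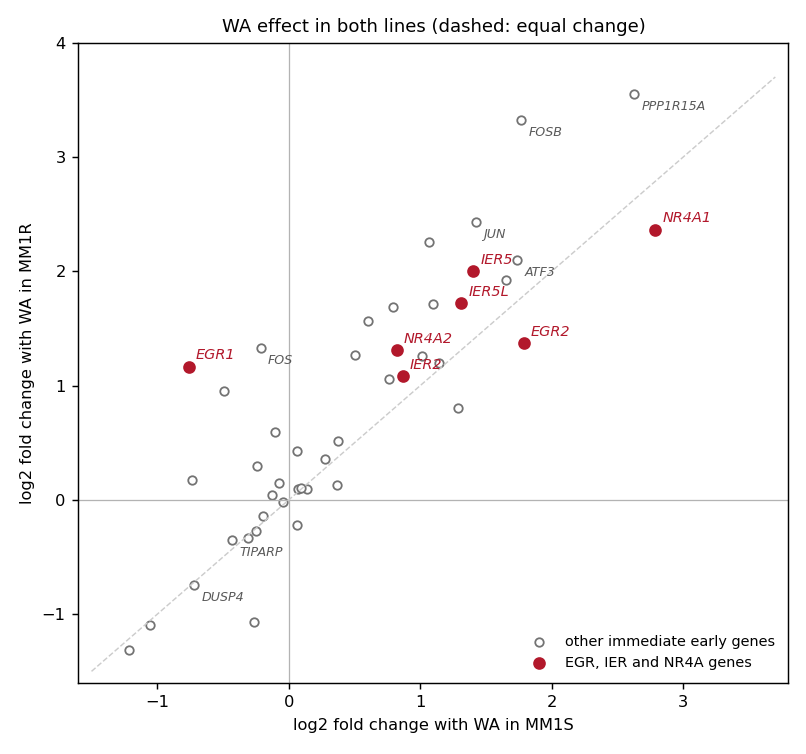
Log2 fold change with WA in MM1S (x axis) and MM1R (y axis) for the 7 tested EGR, IER and NR4A genes (red) and 38 other immediate early genes (open grey), with a dashed line of equal change. NR4A1 (2.79 and 2.37) lies furthest to the right, PPP1R15A (2.63 and 3.55) highest, and EGR1 (-0.76 and 1.17) is the member on opposite sides of 0.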

How the data were processed

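RNA of 12 cultures was sequenced by the authors as paired reads of 50 bases, mapped with STAR (2.7.3a) to hg19 after quality control with FastQC (0.11.5), both versions from the submitters' processing notes. The authors deposited raw counts of reads on genes, not normalized. Which gene models were counted, and whether strand was used, is not given in the sources used here. Antisense genes overlap several members (IER2, IER3, IER5L, NR4A1, NR4A3 and EGR3), and a long noncoding RNA gene on the same strand overlaps EGR2. Reads of these members and of the overlapping genes cannot be told apart. A deposited table of normalized values was not used. Members, gene lists and tests were chosen with earlier results of these data known.

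Counts were scaled with TMM and tested with the quasi-likelihood test of edgeR 4.0.16 in R 4.3.3, in 1 fit of 12 libraries, for genes that passed filterByExpr (minimum count 10), with Benjamini-Hochberg adjustment over 14085 genes. Limits were an adjusted p of 0.05 for WA and for the difference between lines, and 0.01 with a log2 fold change of 1 in size for the untreated lines. DESeq2 1.42.0 served as an alternative. The script was tested on simulated data. CPM are counts divided by the TMM-scaled library size. Counts of replicate pairs differed by 8.06 to 44.3 times the sampling noise, so that no library was held more than once within a group. Libraries of different groups were not compared in this way. Depth was 17625110 to 19368343 reads per library, and reads carry no molecular identifiers.

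All 10 members are named. Of each further list up to 4 genes called with WA in either line are named, by mean size of the log2 fold change, and for IER5, NR4A1 and EGR1, the most abundant of each family, the 3 genes of highest correlation. Single results of some list genes are not reported here. Coordinates and exon numbers are from GENCODE on GRCh37.

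Passage numbers are shared between treatments in the labels. Deviations from the group means of cultures of the same passage correlated with r = 0.71, 0.25 and 0.44 (passages 16, 22 and 23) and 0.39, 0.18 and 0.22 (passages 4, 6 and 7). The highest values with a culture of another passage were -0.44, 0.31 and 0.37 and -0.16, -0.07 and 0.11, so that passage 22 was closer to another passage. All same-passage values were over 0.1, and values with the replicate block are therefore given, where a call changes, beside those of the fit without it, on which the reported calls rest.

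As alternatives, the fit was repeated by DESeq2, with its size factors in edgeR, without a filter, with a filter of 10 reads in each library, and on only those libraries that a comparison uses. Others were the replicate block with edgeR and with DESeq2, and each library left out in turn.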

Additional observations from a re-analysis of the deposited data

How the results depend on the processing

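Of 503 log2 fold changes of single members under an alternative, 447 kept their direction and their side of the limit, 23 lost the call, 20 gained it and 13 changed sign, the last in fits that left out a library. The causes were not tested. The number of members called in MM1R went from 4 to 7 with the replicate block in edgeR and to 8 with no filter on low counts, where NR4A3 was tested and called. In MM1S it went from 3 to 6 with no filter, where EGR3 was called. The fit with no filter took in 26497 genes, and 2344 of them passed the limit for WA in MM1R. For MM1S the figure was 1895. With the filter, 1973 and 1476 of 14085 genes passed. For the untreated lines the number of members called went from 0 to 1 (NR4A1) with no filter and with DESeq2. There the adjusted p of NR4A1 was 1.4e-09 with no filter, beside 0.030 in the reported fit (both edgeR). How reliable the fit with no filter is was not tested, and the reported calls do not rest on it. With 1 library left out, the number of members called with WA was 3 to 5 in MM1R and 1 to 4 in MM1S. In MM1S 1 was left without untreated passage 22 or 23 or WA passage 16 or 23. The replicate block changed no other call than those given in the report, and none of the difference between lines.

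The 13 changes of sign, none of a value past its limit, are covered by these ranges over the fits that left out a library. For EGR1 the log2 fold change with WA in MM1S ran from -1.15 to 0.50 and that between the lines from -1.67 to 0.51, both above 0 without untreated MM1S passage 22. Between the lines EGR2 ran from -0.11 to 1.10, IER2 from -0.021 to 0.54 and IER5L from -0.037 to 0.77. The difference of the WA effect ran from -0.93 to 0.28 for EGR2, from -0.16 to 0.91 for IER2, from -0.13 to 0.88 for IER5 and from -0.14 to 0.76 for IER5L. Without a change of sign, it ran from 0.66 to 2.85 for EGR1, from 0.28 to 0.90 for NR4A2 and from -0.84 to -0.15 for NR4A1. The libraries whose omission changed the sign were, between the lines, untreated MM1R passage 4 (EGR2, IER2), untreated MM1S passage 23 (IER2, IER5L) and untreated MM1R passage 7 (IER5L). In the difference they were untreated MM1R passage 4 (EGR2), untreated MM1S passage 16 (IER2, IER5L), MM1S WA passage 22 (IER2) and MM1R WA passage 7 (IER2, IER5).

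Over all genes, calls with WA ranged from 950 to 2396 in MM1R and from 726 to 1621 in MM1S with a library left out, and were 4094 and 3399 with the replicate block in edgeR and 3424 and 2930 with that block in DESeq2, beside 1973 and 1476. Between the untreated lines 811 genes passed with no filter and 234 with at least 10 reads in every library, beside 419. EGR3 and NR4A3 had at most 10 reads in any library, and each group had 3 cultures.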
